A study of Mus musculus with 12 samples.

Results

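The genes described here encode 32 proteins of blood clotting and of the dissolution of clots. They were chosen by symbol, as 16 procoagulant genes, 7 anticoagulant genes, 6 fibrinolytic genes and 3 genes with other or mixed roles, from a table of 55401 mouse genes. All 32 passed the filter on low counts, as did 17585 genes in all. Levels were measured by RNA sequencing of whole liver in 12 libraries, 3 in each of 4 groups. The first group was FBXL5ΔDC mice (Cd11c-Cre/Fbxl5F/F) taken 6 h after an injection of acetaminophen (APAP), a painkiller that injures the liver in overdose. The second was control mice (Fbxl5F/F, with no Cre in the label) at the same time. The other two groups were untreated FBXL5ΔDC and untreated control mice, here called 0 h. In every mouse both Fbxl5 alleles could be cut by Cre, and every mouse was male, 7 to 10 weeks old and kept under specific pathogen-free conditions. Fbxl5 encodes the iron-sensing part of a ubiquitin ligase, and Cd11c-Cre is active mainly in dendritic cells, although other myeloid cells also use this promoter. The labels give the dose as 300 or 500 mg/kg without assigning it to these mice. Injected mice were fasted for 16 h beforehand and fed afterwards, whereas fasting of the 0 h mice was not stated. In comparisons of 6 h with 0 h, the drug, the injection, fasting and refeeding therefore cannot be told apart. The labels do not say how cages or litters were spread over the groups, so p-values measure only the spread between these samples.

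Clotting starts when tissue factor binds factor VII, and a cascade of proteases then makes thrombin, which turns fibrinogen into fibrin. Antithrombin, tissue factor pathway inhibitor and the thrombomodulin and protein C system hold the cascade back, and plasmin, made from plasminogen by tissue plasminogen activator or urokinase, dissolves fibrin. Hepatocytes make most of the circulating factors, whereas thrombomodulin, the protein C receptor, von Willebrand factor, factor VIII and tissue plasminogen activator come largely from endothelium. In mouse models of acetaminophen injury the cascade is activated in the liver and fibrin is laid down there. In whole-liver RNA, fewer cells of a type and less RNA per cell cannot be told apart.

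The RefSeq promoter table (build GRCm38.p6) held 24 of the 32 genes. Promoters are shown for the 3 fibrinogen chains, which share a locus and moved together, and for F3 and Plaur, which start clotting and localise fibrinolysis at cell surfaces. Each runs over the 250 bases before the RefSeq start of transcription, 5′ to 3′ on the gene's strand. The GENCODE annotation, used below for gene positions, can place a start elsewhere. It starts Fga at chr3:83026076, inside the window shown, and the HNF1 half-site match of Fga lies past that start. The windows of some members not shown, such as Procr, also reach into the gene by that annotation. The windows are Fga at chr3:83025903-83026152, Fgb at chr3:83049864-83050113 on the minus strand, Fgg at chr3:83007474-83007723, F3 at chr3:121723287-121723536 and Plaur at chr7:24462233-24462482. Capitals mark matches to AP-1 letters (TGANTCA), STAT letters (TTCNNNGAA) and HNF1 half-site letters (GTTAAT, which reads ATTAAC on the other strand).
Fga: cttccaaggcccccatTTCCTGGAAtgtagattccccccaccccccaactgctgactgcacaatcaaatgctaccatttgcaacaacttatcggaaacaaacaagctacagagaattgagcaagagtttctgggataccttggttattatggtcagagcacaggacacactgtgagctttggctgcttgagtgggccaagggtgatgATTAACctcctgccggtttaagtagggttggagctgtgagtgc
Fgb: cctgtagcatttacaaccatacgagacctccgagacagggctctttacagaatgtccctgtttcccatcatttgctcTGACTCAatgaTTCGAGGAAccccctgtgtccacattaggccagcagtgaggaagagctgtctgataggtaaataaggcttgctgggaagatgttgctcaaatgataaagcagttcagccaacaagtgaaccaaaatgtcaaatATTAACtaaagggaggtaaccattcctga
Fgg: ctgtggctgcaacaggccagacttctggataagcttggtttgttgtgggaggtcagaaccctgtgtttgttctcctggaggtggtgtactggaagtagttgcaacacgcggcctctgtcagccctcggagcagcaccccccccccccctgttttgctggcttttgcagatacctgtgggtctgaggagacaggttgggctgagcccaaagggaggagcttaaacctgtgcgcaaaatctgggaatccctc
F3: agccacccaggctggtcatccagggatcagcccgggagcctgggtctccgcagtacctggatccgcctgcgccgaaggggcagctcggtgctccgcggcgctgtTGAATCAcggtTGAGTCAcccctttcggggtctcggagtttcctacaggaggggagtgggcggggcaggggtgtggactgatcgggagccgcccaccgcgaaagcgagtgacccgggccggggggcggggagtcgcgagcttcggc
Plaur: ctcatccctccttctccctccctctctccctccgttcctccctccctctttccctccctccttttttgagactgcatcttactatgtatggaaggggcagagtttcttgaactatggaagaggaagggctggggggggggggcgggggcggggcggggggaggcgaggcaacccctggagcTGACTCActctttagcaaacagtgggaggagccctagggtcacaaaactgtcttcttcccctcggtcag
F3 held 2 AP-1 matches, at −146 to −140 and −135 to −129 from the start, Plaur held 1 at −69 to −63, and Fgb held 1 at −173 to −167. Fga and Fgb each held 1 STAT match and 1 HNF1 half-site match, and Fgg held none of the 3. Among the other members, STAT letters stood in F9 and Pros1 and HNF1 half-site letters in F13b, none of which rose after acetaminophen. Both strands were searched, and over all 32851 mouse promoters of that length 6.75% held AP-1 letters, 7.02% STAT letters and 6.43% HNF1 half-site letters. AP-1 letters stood in 7 of the 24 member promoters, namely F2, F3, Fgb, Procr, Plaur, Hrg and F2r. Of the 10 members that rose after acetaminophen in either genotype, 7 had a promoter in the table and 5 of these held AP-1 letters, against 2 of the other 17 promoters. Thbd, Plat and Thbs1, which also rose, had no promoter in the table. Of the 5, F3, Procr and F2r lost their calls under some alternatives. The members were grouped by calls from these same data, and a link between AP-1 letters and the rises was not tested. Letters of other factors were found for EGR (GCGNGGGCG) in Plaur, CRE (TGACGTCA) in Cpb2, C/EBP (TTNNGNAAT) in F13b, Klkb1 and Hrg, SP1 (GGGCGG) in 6 members and HNF4 (CAAAGTCCA) in 0. Their shares of all promoters were 4.7%, 1.55%, 10.2%, 32.7% and 0.384%. A match is a run of letters, and binding was not measured.

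Libraries held 67.2 to 72.5 M counts (M for mega) and 19203 to 21405 detected genes. The 3rd treated control library stood apart from its group on the first principal component, with −9.11, −7.58 and 86.6 in treated control livers, against 97.2, 105 and 104 in treated FBXL5ΔDC livers and −66.1 to −57.9 in untreated livers. Results that rest on it are given with and without it. Levels are given as CPM, counts relative to a library size that was scaled by the trimmed mean of M values (TMM). Gene totals of whole liver did not show the deletion, with Fbxl5 at 12.5 to 21.8 CPM in treated FBXL5ΔDC livers, 13.3 to 19.2 CPM in treated control livers, 10.3 to 21.4 CPM in untreated FBXL5ΔDC livers and 17.6 to 21.96 CPM in untreated control livers. The hepatocyte markers Alb, Ttr, Apoa1, Apob, Cps1 and Tat were at 0 CPM in no group.

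In untreated control livers the 32 genes were compared with each other on a scale of CPM per kilobase of exon. The fibrinogen chains stood highest, with Fgg at 890.1 ± 27.8, Fga at 803 ± 22.2 and Fgb at 557 ± 11.8 CPM per kilobase (SD, n = 3). Plasminogen (Plg, 501 ± 40.6), kininogen (Kng1, 413 ± 25.7), the heparin- and plasminogen-binding protein Hrg (356 ± 12.8) and prothrombin (F2, 332 ± 13.9) came next. At the low end were factor VIII (F8, 0.739 ± 0.177), von Willebrand factor (Vwf, 0.186 ± 0.0406), the urokinase receptor (Plaur, 0.121 ± 0.0266), the protein C receptor (Procr, 0.0349 ± 0.0444) and tissue plasminogen activator (Plat, 0.0223 ± 0.0137). The 32 genes together took 2.04, 2.28 and 2.44% of counts in treated FBXL5ΔDC livers and 1.56, 1.92 and 2.11% in treated control livers. At 0 h they took 1.84, 1.96 and 1.98% in FBXL5ΔDC livers and 1.84, 1.80 and 1.77% in control livers.

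**Figure D1:**
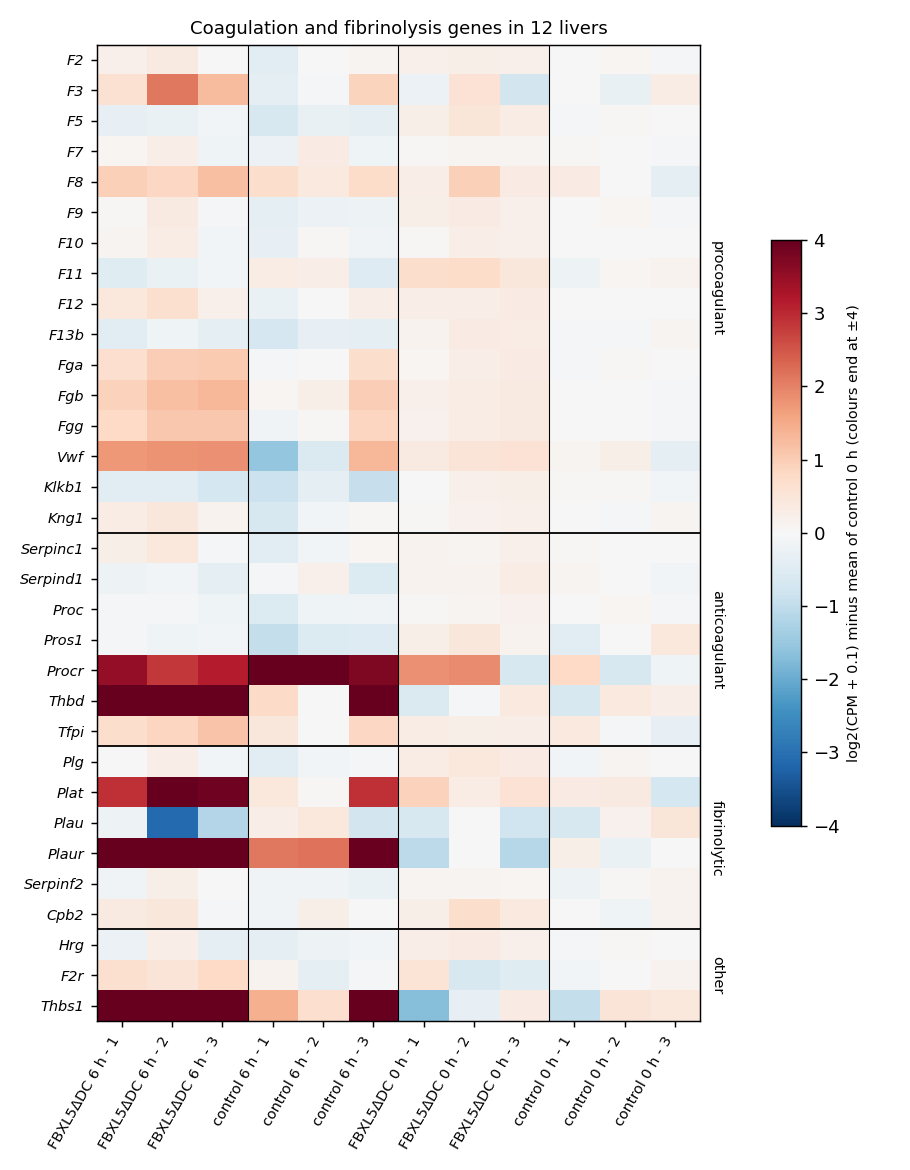
Each row is one of the 32 genes by role, each column one of the 12 libraries, and colour is log2(CPM + 0.1) minus the mean of the 3 untreated control livers, ending at ±4. The dark red cells of Thbd, Plat, Plaur and Thbs1 fill the 3 treated FBXL5ΔDC livers and treated control replicate 3, Procr is red in all 6 treated livers and darkest in the treated control livers, and most genes made by hepatocytes stay pale.

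After acetaminophen, FBXL5ΔDC livers held more transcript of all 3 fibrinogen chains, of tissue factor and of thrombomodulin. They also held more of the plasminogen activator Plat, the urokinase receptor Plaur, the thrombin receptor F2r and thrombospondin 1 (Thbs1). Factor V (F5), factor XI (F11), the factor XIII carrier subunit F13b and plasma prekallikrein (Klkb1) fell. In all, 9 of 32 genes rose, against 15% of the 17585 tested genes, and 4 fell, against 15.1%, at an edgeR adjusted p below 0.05. With all libraries the share of rises among them was therefore above that of all genes and the share of falls near it. With any 1 library left out, 5 to 11 of the 32 rose, against 1849 to 3117 of all genes. The genes share the same livers, so these are not 32 independent results. The median log2 change with all libraries was 0.02 over the 32 genes and 0.02 over all genes.

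Of the 16 procoagulant genes 4 rose and 4 fell, with a median log2 change of 0.07. The fibrinogen genes lie side by side on chromosome 3 of GRCm38, Fgg at chr3:83007724-83015049 and Fga at chr3:83026076-83033627 on the plus strand and Fgb at chr3:83040141-83049863 on the minus strand. Fga, the alpha chain, had 3821, 4832 and 4969 CPM in FBXL5ΔDC livers and 2334, 2449 and 3931 CPM in control livers at 6 h, against 2546, 2912 and 3038 CPM in FBXL5ΔDC livers and 2364, 2493 and 2396 CPM in control livers at 0 h. Treated FBXL5ΔDC livers were all above untreated ones, and treated control replicate 3 lay in the treated FBXL5ΔDC range while replicates 1 and 2 did not. Fga rose in FBXL5ΔDC livers (log2 0.68, SE 0.19, edgeR adjusted p = 0.0155), as did Fgb (log2 0.87, SE 0.20, edgeR adjusted p = 0.00635) and Fgg (log2 0.73, SE 0.21, edgeR adjusted p = 0.0201). Fgb, the beta chain, had 4042, 4903 and 5275 CPM in FBXL5ΔDC livers and 2263, 2482 and 4206 CPM in control livers at 6 h, against 2442, 2611 and 2743 CPM in FBXL5ΔDC livers and 2147, 2149 and 2070.3 CPM in control livers at 0 h. Fgg, the gamma chain, had 3250.1, 3957 and 3970.1 CPM in FBXL5ΔDC livers and 1697, 1926 and 3378 CPM in control livers at 6 h, against 2099, 2277 and 2379 CPM in FBXL5ΔDC livers and 1896, 1897 and 1796 CPM in control livers at 0 h. Per kilobase, Fgb over Fga was 0.766 to 0.845 in the 6 treated livers, against 0.681 to 0.758 in the 6 untreated livers, without overlap. Fgg over Fga was 1.05 to 1.24 over the 12 libraries. Together they took 1.01, 1.17 and 1.42% of counts in treated FBXL5ΔDC livers and 0.694, 0.784 and 1.11% in treated control livers, against 0.684, 0.747 and 0.781% in untreated FBXL5ΔDC livers and 0.704, 0.677 and 0.656% in untreated control livers. Fga lost its call without untreated FBXL5ΔDC replicate 1 or treated replicate 2 or 3 (edgeR adjusted p = 0.0666, 0.0527 and 0.0574). Fgg lost it in the same cases and without untreated replicate 2 (edgeR adjusted p = 0.0736, 0.063, 0.0645 and 0.0587), and Fgb kept it without any 1 library.

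Tissue factor (F3, ENSMUSG00000028128.13, chr3:121723537-121735048, plus strand) is the cell-surface receptor that starts clotting. F3 had 3.19, 9.09 and 5.05 CPM in FBXL5ΔDC livers and 1.54, 1.98 and 3.84 CPM in control livers at 6 h, against 1.73, 3.09 and 1.19 CPM in FBXL5ΔDC livers and 2.03, 1.65 and 2.54 CPM in control livers at 0 h. Levels were low and scattered, but all 3 treated FBXL5ΔDC livers were above all 3 untreated ones (log2 1.53, SE 0.47, edgeR adjusted p = 0.0265). The call was lost without untreated FBXL5ΔDC replicate 1 or 3 or treated replicate 2 (edgeR adjusted p = 0.0903, 0.106 and 0.134). Von Willebrand factor, which tethers platelets and carries factor VIII, had 10.04, 10.5 and 10.7 CPM in FBXL5ΔDC livers and 0.929, 1.93 and 7.57 CPM in control livers at 6 h, against 3.83, 4.28 and 4.44 CPM in FBXL5ΔDC livers and 3.20, 3.51 and 2.26 CPM in control livers at 0 h. The treated FBXL5ΔDC livers were tightly grouped above the untreated ones, yet Vwf missed the threshold with all 12 libraries (log2 1.32, SE 0.55, edgeR adjusted p = 0.0917) and passed it without treated control replicate 3 (log2 1.32, edgeR adjusted p = 0.0012) or replicate 1 (edgeR adjusted p = 0.0212) and by DESeq2 (adjusted p = 0.0438). Vwf passed also in a fit to the FBXL5ΔDC groups alone (log2 1.32, SE 0.168, edgeR adjusted p = 0.000305).

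The 4 procoagulant genes that fell were F11, F5, F13b and Klkb1. F11 (ENSMUSG00000031645.4, chr8:45241174-45262031, minus strand) encodes factor XI, which activates factor IX. F11 had 15.7, 18.2 and 20.2 CPM in FBXL5ΔDC livers and 27.2, 26.5 and 15.4 CPM in control livers at 6 h, against 35.6, 36.3 and 30.4 CPM in FBXL5ΔDC livers and 19.005, 23.1 and 24.3 CPM in control livers at 0 h. In FBXL5ΔDC livers the treated values were all below the untreated ones (log2 −0.92, SE 0.20, edgeR adjusted p = 0.00482), and treated control replicates 1 and 2 were the highest treated livers. F5, the cofactor of factor Xa, had 411, 433 and 477 CPM in FBXL5ΔDC livers and 332, 420.2 and 402 CPM in control livers at 6 h, against 615, 726 and 645 CPM in FBXL5ΔDC livers and 506, 534 and 520.0 CPM in control livers at 0 h. It fell in FBXL5ΔDC livers (log2 −0.59, SE 0.12, edgeR adjusted p = 0.00344), as did F13b (log2 −0.57, SE 0.12, edgeR adjusted p = 0.00444) and Klkb1, the protease of the contact system (log2 −0.66, SE 0.15, edgeR adjusted p = 0.00611). F13b had 118, 141 and 120.0 CPM in FBXL5ΔDC livers and 97.4, 125 and 122 CPM in control livers at 6 h, against 174, 197 and 193 CPM in FBXL5ΔDC livers and 151, 151 and 168 CPM in control livers at 0 h. Klkb1 had 221, 222 and 184 CPM in FBXL5ΔDC livers and 164, 234 and 159 CPM in control livers at 6 h, against 301, 341 and 351 CPM in FBXL5ΔDC livers and 311, 310.2 and 279 CPM in control livers at 0 h. All treated livers of both genotypes were below all untreated ones for these last 3 genes. F11, F5, F13b and Klkb1 were called lower also when any 1 library was left out. Klkb1 shares 43.2% of its exon bases with the same-strand model Gm45753, whose counts were at most 1.15% of its own. The other 8 procoagulant genes, prothrombin and factors VII to X and XII, Vwf and Kng1, were not called in FBXL5ΔDC livers, with log2 values between −0.14 (F9, factor IX) and 1.32 (Vwf). Kng1 has a near copy, Kng2, so the split of its counts is uncertain. For F5 and Fgg 3.53% and 5.49% of exon bases are shared with non-coding gene models.

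Prothrombin and factors VII, VIII, X and XII, with Kng1, passed the test in none of the 4 comparisons between groups, and their levels are given as ranges over the 12 libraries. Prothrombin (F2), which thrombin is cut from, ran from 1133 to 1953 CPM, and factor X (F10), which cuts it, from 225 to 354 CPM. Factor VII (F7), the partner of tissue factor, ran from 53.9 to 79.4 CPM, and factor XII (F12), which starts the contact pathway, from 388 to 724 CPM. Kng1, the cofactor of that pathway, ran from 854 to 1825 CPM, and its lowest value was that of treated control replicate 1, as it was for F2, F7, F10 and F12. Factor VIII (F8), the cofactor of factor IX, was scarcer and ran from 5.56 to 16.6 CPM, with 14.1, 12.8 and 16.6 CPM in treated and 8.69, 14.02 and 9.09 CPM in untreated FBXL5ΔDC livers (log2 0.45, edgeR adjusted p = 0.159).

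**Figure D2:**
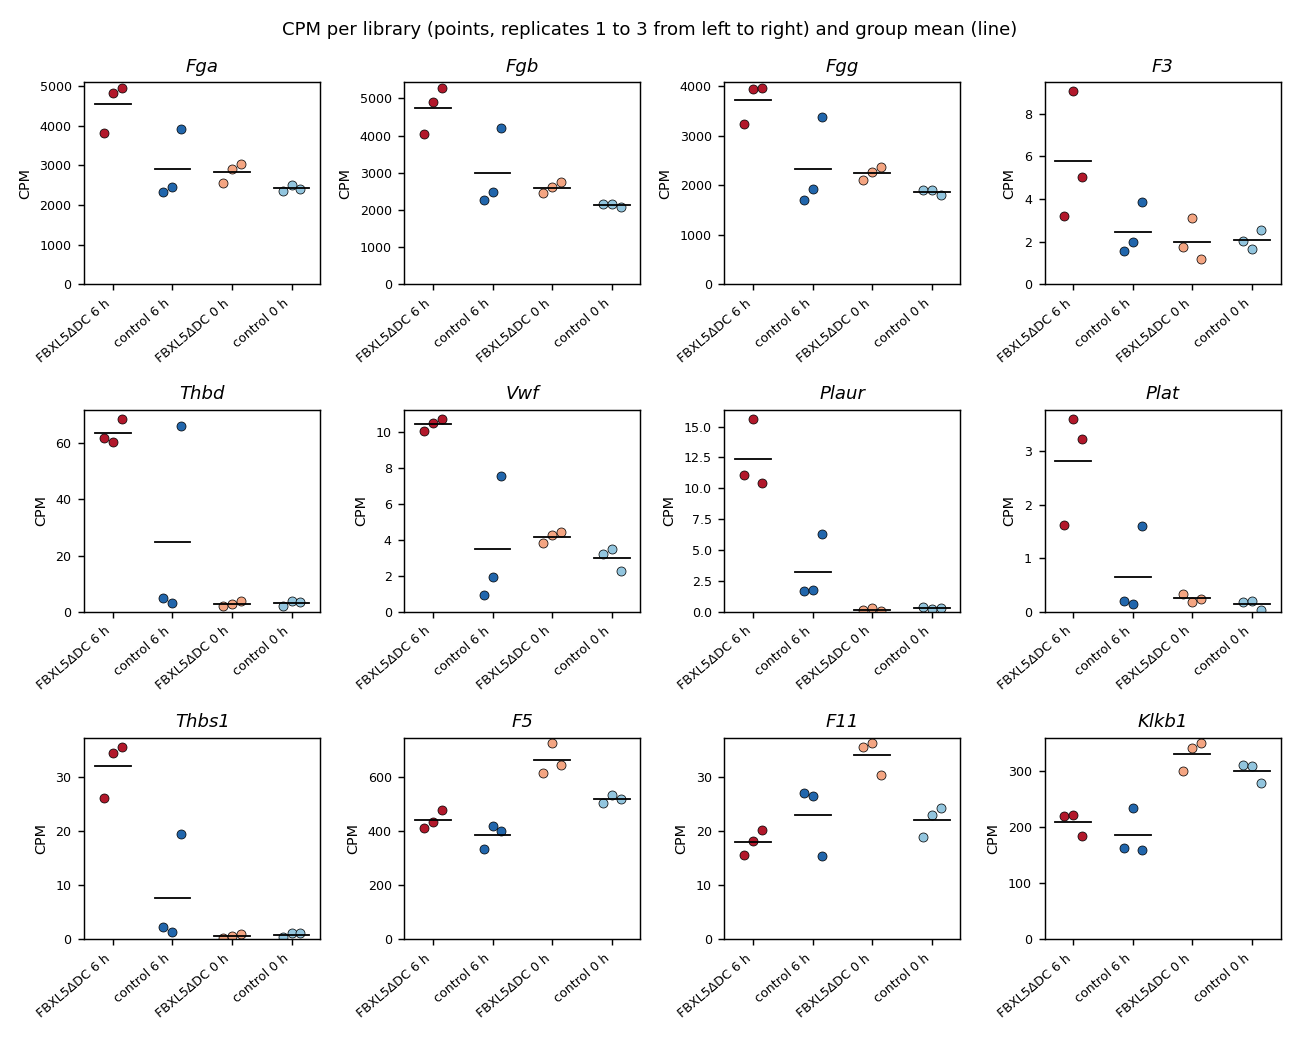
Points are CPM of single libraries for 12 of the genes, on linear axes that start at 0, with the 4 groups from treated FBXL5ΔDC to untreated control livers and a line at each group mean. In Thbd, Vwf, Plat and Thbs1, treated control replicate 3 lies at or towards the treated FBXL5ΔDC level and replicates 1 and 2 lie well under it, in Vwf below all 6 untreated livers.

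Among the 7 anticoagulant genes 1 rose and 0 fell in FBXL5ΔDC livers, with a median log2 change of 0.04. Over all genes 7097 had an unadjusted p below 0.05, and DESeq2 called 0 of the 7 lower as well. DESeq2 called Tfpi higher (adjusted p = 0.0483) and gave no adjusted p for Thbd. Thrombomodulin (Thbd, ENSMUSG00000074743.4, chr2:148404466-148408188, minus strand) is the endothelial receptor that turns thrombin towards protein C. Thbd had 61.8, 60.6 and 68.5 CPM in FBXL5ΔDC livers and 5.04, 3.004 and 65.99 CPM in control livers at 6 h, against 1.93, 2.85 and 3.90 CPM in FBXL5ΔDC livers and 1.86, 3.89 and 3.55 CPM in control livers at 0 h. The 3 treated FBXL5ΔDC livers and treated control replicate 3 stood at a common high level, and the other 8 livers at or below 5.04 CPM. It rose in FBXL5ΔDC livers (log2 4.46, SE 1.08, edgeR adjusted p = 0.0126), a call lost without untreated FBXL5ΔDC replicate 1 or 2 (edgeR adjusted p = 0.0563 and 0.0522). Procr, the receptor that presents protein C to thrombomodulin, had 1.67, 1.02 and 1.28 CPM in FBXL5ΔDC livers and 4.03, 3.19 and 1.99 CPM in control livers at 6 h, against 0.457, 0.485 and 0 CPM in FBXL5ΔDC livers and 0.172, 0 and 0.0403 CPM in control livers at 0 h. It was detected in all 6 treated livers, more in control than in FBXL5ΔDC livers, and was near the detection floor of 3 counts (0.0371 to 0.0492 CPM) in several untreated livers. In FBXL5ΔDC livers Procr was not called (log2 2.07, SE 1.0, edgeR adjusted p = 0.143). Tissue factor pathway inhibitor (Tfpi) averaged 5.89 ± 0.910 CPM in treated and 3.73 ± 0.0929 CPM in untreated FBXL5ΔDC livers (log2 0.66, edgeR adjusted p = 0.0814). The hepatocyte-made inhibitors antithrombin (Serpinc1, log2 0.04, edgeR adjusted p = 0.869), heparin cofactor II (Serpind1, log2 −0.43, edgeR adjusted p = 0.0689), protein C (Proc, log2 −0.21, edgeR adjusted p = 0.232) and protein S (Pros1, log2 −0.40, edgeR adjusted p = 0.127) were not called. In a fit to the FBXL5ΔDC groups alone, Serpind1 (edgeR adjusted p = 0.0143) and Pros1 (edgeR adjusted p = 0.0165) passed the threshold as lower. Serpind1 also passed it without treated control replicate 2 or 3 (edgeR adjusted p = 0.036 and 0.0115). Tfpi passed as higher in the fit to those groups and without treated control replicate 3 (edgeR adjusted p = 0.0333 and 0.0492). Over the 12 libraries Serpinc1 ran from 1184 to 2102 CPM, Serpind1 from 223 to 402 CPM and Proc from 289.7 to 475 CPM. For Serpinc1, 34.4% of exon bases are shared with Zbtb37, whose counts were at most 0.615% of its own.

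Of the 6 fibrinolytic genes 2 rose and 0 fell in FBXL5ΔDC livers, by edgeR and by DESeq2, with a median log2 change of −0.13. Plaur (ENSMUSG00000046223.10, chr7:24462484-24475968, plus strand) encodes the receptor that holds urokinase at the cell surface. Plaur had 11.1, 15.6 and 10.4 CPM in FBXL5ΔDC livers and 1.68, 1.78 and 6.29 CPM in control livers at 6 h, against 0.10, 0.309 and 0.0894 CPM in FBXL5ΔDC livers and 0.385, 0.246 and 0.322 CPM in control livers at 0 h. The 6 treated livers were all above the 6 untreated ones, and the 3 treated FBXL5ΔDC livers were above the 3 treated control livers. It rose in FBXL5ΔDC livers (log2 6.20, SE 0.65, edgeR adjusted p = 8e-05). Plat, tissue plasminogen activator, had 1.63, 3.59 and 3.23 CPM in FBXL5ΔDC livers and 0.206, 0.136 and 1.61 CPM in control livers at 6 h, against 0.329, 0.176 and 0.238 CPM in FBXL5ΔDC livers and 0.186, 0.191 and 0.0403 CPM in control livers at 0 h. Treated FBXL5ΔDC livers and treated control replicate 3 were again high and the rest low (log2 3.50, SE 0.88, edgeR adjusted p = 0.00972). Both calls held without any 1 library. Urokinase itself (Plau) was at 0.309 ± 0.323 CPM in treated and 0.546 ± 0.203 CPM in untreated FBXL5ΔDC livers, too few counts to show a change of this size (log2 −0.81, SE 0.94, edgeR adjusted p = 0.563). Plasminogen (log2 −0.28, edgeR adjusted p = 0.151), the plasmin inhibitor Serpinf2 (log2 −0.07, edgeR adjusted p = 0.732) and Cpb2, a carboxypeptidase that slows fibrin breakdown (log2 −0.20, edgeR adjusted p = 0.413), were not called. Over the 12 libraries Plg ran from 1374 to 2462 CPM, Serpinf2 from 471 to 668 CPM and Cpb2 from 152 to 278 CPM. Plg shares 11.3% of its exon bases with Slc22a3, whose counts were at most 0.352% of its own.

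Of the 3 remaining genes 2 rose. Thbs1 (ENSMUSG00000040152.8, chr2:118111876-118127133, plus strand) encodes thrombospondin 1, a matrix and platelet protein. Thbs1 had 26.2, 34.6 and 35.6 CPM in FBXL5ΔDC livers and 2.26, 1.32 and 19.5 CPM in control livers at 6 h, against 0.171, 0.602 and 1.01 CPM in FBXL5ΔDC livers and 0.358, 1.17 and 1.09 CPM in control livers at 0 h. Treated control replicate 3 lay between the treated FBXL5ΔDC livers and all other livers. Thbs1 rose in FBXL5ΔDC livers (log2 5.75, SE 1.12, edgeR adjusted p = 0.00398), also without any 1 library. F2r, the thrombin receptor PAR1, had 26.1, 23.7 and 28.9 CPM in FBXL5ΔDC livers and 18.1, 12.8 and 15.98 CPM in control livers at 6 h, against 24.2, 10.6 and 11.8 CPM in FBXL5ΔDC livers and 15.1, 16.5 and 18.1 CPM in control livers at 0 h. Untreated FBXL5ΔDC replicate 1 lay within the treated range, and the rise (log2 0.75, SE 0.26, edgeR adjusted p = 0.0463) was lost in 12 of 19 alternatives, with adjusted p up to 0.177. Hrg was not called (log2 −0.35, edgeR adjusted p = 0.102).

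Markers of other cell types moved with these genes, and their part in the changes was not tested. The 4 vascular endothelial markers Pecam1, Cdh5, Tie1 and Emcn summed to 84.4, 84.3 and 102 CPM in treated FBXL5ΔDC livers, 33.5, 36.2 and 78.7 CPM in treated control livers, 37.5, 31.9 and 31.7 CPM in untreated FBXL5ΔDC livers and 34.8, 27.5 and 28.1 CPM in untreated control livers. The 6 sinusoidal endothelial markers Stab2, Lyve1, Clec4g, Oit3, Fcgr2b and Kdr summed to 248, 233 and 281 CPM in treated FBXL5ΔDC livers, 132, 120.2 and 198 CPM in treated control livers, 156, 117 and 129.7 CPM in untreated FBXL5ΔDC livers and 145, 119.6 and 118 CPM in untreated control livers. In both lists treated control replicate 3 was the highest control liver. Of the vascular markers 3 rose after acetaminophen in FBXL5ΔDC livers and 0 in control livers, and of the sinusoidal markers 5 rose in FBXL5ΔDC livers and 0 in control livers. The 6 platelet markers, of which 4 were tested, summed to 7.43, 9.11 and 9.67 CPM in treated FBXL5ΔDC livers, 2.28, 3.004 and 8.88 CPM in treated control livers, 2.80, 3.32 and 1.73 CPM in untreated FBXL5ΔDC livers and 3.08, 3.60 and 2.74 CPM in untreated control livers. Of these 2 rose in FBXL5ΔDC livers and 1 in control livers, Gp6 was at 0 in treated and untreated control livers, and Gp9 was at 0 in both untreated groups.

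The 5 stellate cell markers summed to 304 to 356 CPM in treated FBXL5ΔDC livers, 158 to 290.0 CPM in treated control livers, 83.8 to 153 CPM in untreated FBXL5ΔDC livers and 129 to 202 CPM in untreated control livers, and 3 rose in FBXL5ΔDC livers and 0 in control livers. The 5 neutrophil markers, of which 4 were tested, summed to 1.48 to 6.69 CPM in treated FBXL5ΔDC livers, 1.39 to 2.54 CPM in treated control livers, 0.223 to 0.429 CPM in untreated FBXL5ΔDC livers and 0.133 to 0.587 CPM in untreated control livers. All 4 rose in FBXL5ΔDC livers and 1 in control livers, with Ly6g and Mmp8 at 0 in both untreated groups and Ly6g at 0 in treated control livers. The 3 cholangiocyte markers summed to 44.5 to 211 CPM in treated FBXL5ΔDC livers, 17.7 to 45.8 CPM in treated control livers, 4.60 to 8.24 CPM in untreated FBXL5ΔDC livers and 5.39 to 6.44 CPM in untreated control livers, and 3 rose in FBXL5ΔDC livers and 1 in control livers. The 6 hepatocyte markers summed to 108398 to 139765 CPM in treated FBXL5ΔDC livers, 67969.9 to 114189 CPM in treated control livers, 79686 to 89067 CPM in untreated FBXL5ΔDC livers and 75367 to 82041 CPM in untreated control livers, and 1 rose in FBXL5ΔDC livers and 0 in control livers. Of the Kupffer cell, dendritic cell and mesothelial markers 0 were called in either genotype, with 1 of 3 monocyte markers higher in FBXL5ΔDC livers and 1 of 5 red cell markers higher in control livers.

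The same comparison, 6 h after acetaminophen against 0 h, was made in control livers. Plaur and Procr rose, and F5, F13b, Klkb1 and protein S fell. Thus 2 of 32 genes rose, against 6.36% of all tested genes, and 4 fell, against 4.2%, and the median log2 change was −0.01 over the 32 genes and 0.03 over all genes. By role, 0 procoagulant genes rose and 3 fell, 1 anticoagulant gene rose and 1 fell, 1 fibrinolytic gene rose and 0 fell, and 0 of the other 3 were called, by edgeR. DESeq2 made the same calls, but gave no adjusted p for Thbd and Thbs1 and so could call neither. Over all genes 4346 had an unadjusted p below 0.05 by edgeR. Plaur rose in every treated control liver (log2 3.34, SE 0.57, edgeR adjusted p = 0.0037). Procr rose, with untreated counts near the floor (log2 5.39, SE 1.18, edgeR adjusted p = 0.0146), and lost its call without untreated control replicate 3 (edgeR adjusted p = 0.0681). F5 (log2 −0.43, SE 0.12, edgeR adjusted p = 0.0399), F13b (log2 −0.45, SE 0.12, edgeR adjusted p = 0.037), Klkb1 (log2 −0.69, SE 0.15, edgeR adjusted p = 0.0139) and Pros1, the cofactor of protein C (log2 −0.70, SE 0.19, edgeR adjusted p = 0.0331), fell by 0.43 to 0.70 on the log2 scale. Pros1 had 61.3, 56.8 and 59.4 CPM in FBXL5ΔDC livers and 33.03, 43.97 and 45.1 CPM in control livers at 6 h, against 75.4, 88.7 and 70.7 CPM in FBXL5ΔDC livers and 48.6, 64.1 and 86.2 CPM in control livers at 0 h, and the treated livers of each genotype were below its untreated livers. These 4 calls were lost in a fit to the 2 control groups alone (edgeR adjusted p = 0.132, 0.126, 0.0785 and 0.144) and without untreated control replicate 2 (edgeR adjusted p = 0.131, 0.0915, 0.0567 and 0.0837). The calls of F5 and F13b were lost in 10 of 19 alternatives each, and that of Pros1 also without untreated replicate 3 or treated replicate 1. The fibrinogen chains were not called (log2 0.26, edgeR adjusted p = 0.433 for Fga, log2 0.49, edgeR adjusted p = 0.145 for Fgb, log2 0.32, edgeR adjusted p = 0.385 for Fgg), and neither was F11 (log2 0.06, edgeR adjusted p = 0.908).

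**Figure D3:**
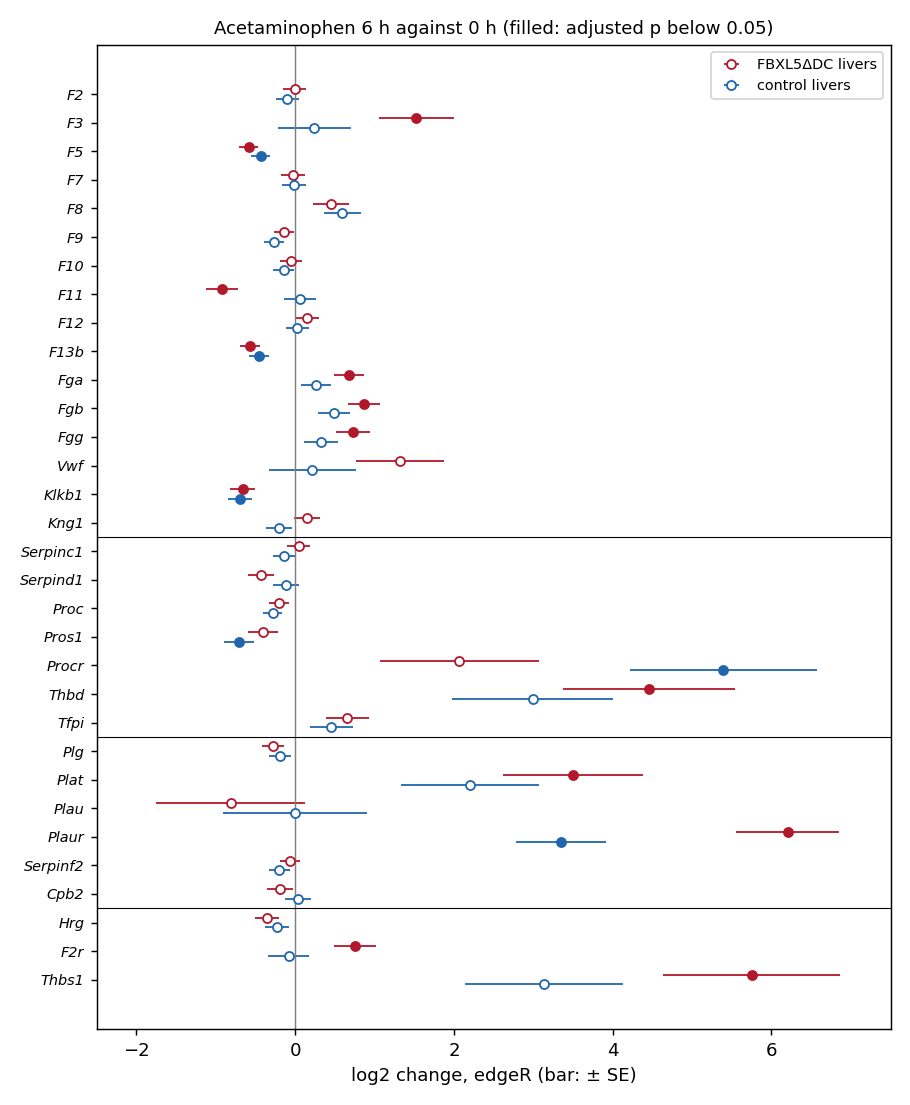
Points are edgeR log2 changes of the 32 genes, 6 h against 0 h, with bars of ±1 SE, red for FBXL5ΔDC and blue for control livers, and filled where the adjusted p is below 0.05. Plaur is filled at 6.20 in FBXL5ΔDC and 3.34 in control livers, F5, F13b and Klkb1 are filled on the left in both, and F11 is filled in FBXL5ΔDC livers at −0.92 and lies at 0.06 in control livers.

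Treated control replicate 3 decided several control values. Thbd (log2 2.99, edgeR adjusted p = 0.0968), Plat (log2 2.2, edgeR adjusted p = 0.131) and Thbs1 (log2 3.14, edgeR adjusted p = 0.0753) were not called in control livers, and without that library their values were smaller (log2 0.38, edgeR adjusted p = 0.615 for Thbd, log2 0.30, edgeR adjusted p = 0.885 for Plat and log2 1.03, edgeR adjusted p = 0.368 for Thbs1). Without treated control replicate 2 these 3 genes passed the threshold (edgeR adjusted p = 0.0312 for Thbd, 0.0487 for Plat and 0.03 for Thbs1). Vwf turned its direction, with log2 0.21, edgeR adjusted p = 0.872 with all libraries and log2 −1.06, edgeR adjusted p = 0.0424 without replicate 3. Without replicate 3, 2 of the 32 genes rose in control livers and 5 fell, against 5.23% and 3.86% of all genes. The difference between the responses, tested as an interaction, was called for 0 of 32 genes in either direction, against 0.0341% of all genes higher and 0.256% lower. At an unadjusted p below 0.05 it held for 2 genes higher and 2 lower of the 32 and for 2543 of all genes, which were not split by direction. DESeq2 called Plaur (adjusted p = 0.0134). The largest values were those of Plaur (log2 2.86, SE 0.79, edgeR adjusted p = 0.133), Thbs1 (log2 2.62, SE 1.36, edgeR adjusted p = 0.417) and, with the response lower in FBXL5ΔDC livers, Procr (log2 −3.33, SE 1.46, edgeR adjusted p = 0.323). Without treated control replicate 3, 8 genes had a higher response in FBXL5ΔDC livers (Fga, Fgb, Fgg, Vwf, Thbd, Plat, Plaur and Thbs1) and F11 a lower one (log2 −1.20, edgeR adjusted p = 0.00131). Over all genes 5.97% had a higher response by that fit and 7.74% a lower one. By it Thbd (log2 4.08, edgeR adjusted p = 0.000366), Plaur (log2 3.77, edgeR adjusted p = 0.00082) and Fgg (log2 0.77, edgeR adjusted p = 0.0131) were among the 8.

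FBXL5ΔDC and control livers were compared at 6 h to ask whether loss of FBXL5 under Cd11c-Cre went with another state of the injured liver. Plaur was higher in FBXL5ΔDC livers (log2 1.93, SE 0.51, edgeR adjusted p = 0.045), at 12.4 ± 2.80 CPM against 3.25 ± 2.63 CPM in control livers (SD, n = 3 each). It was 1 of 32 genes called higher, against 1.35% of all genes, and 0 were lower, against 4.51%, with 3998 genes at an unadjusted p below 0.05. DESeq2 called 0 of the 32 lower, and gave no adjusted p for Thbd and Thbs1. The call of Plaur was lost in 13 of 19 alternatives, with adjusted p up to 0.171. The 32 genes nevertheless leaned upwards, with 28 log2 differences above 0 and a median of 0.37, against −0.01 over all genes. At an unadjusted p below 0.05, 14 of the 32 were higher and 0 lower. The 3998 of all 17585 tested genes were not split by direction, so no share by direction stands beside these counts. Without the TMM factors the medians were 0.14 and −0.23, so that the 32 genes stood about as far above all genes. In 10 of 32 genes all 3 FBXL5ΔDC livers were above all 3 control livers, against 9.74% of all tested genes, and in 1, Procr, they were all below, against 11.2%. With plain library totals it was 5 of 32 above, against 5.54%, and 1 below, against 17.7%. The genes share the same livers, so these are not 32 independent results. Of the 32, 20 had a mean of 30 CPM or more, against 3881 of the 17585 tested genes. The hepatocyte markers summed to 108398 to 139765 CPM in treated FBXL5ΔDC livers and 67969.9 to 114189 CPM in treated control livers. Whether other abundant hepatocyte genes leaned likewise was not tested.

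Among the 16 procoagulant genes the median difference at 6 h was 0.39, and 15 differences were above 0. Fga (log2 0.64, SE 0.19, edgeR adjusted p = 0.0624), Fgb (log2 0.67, SE 0.20, edgeR adjusted p = 0.0699) and Fgg (log2 0.68, SE 0.21, edgeR adjusted p = 0.0787) missed the threshold, as did factor IX (F9, log2 0.39, edgeR adjusted p = 0.0776), Kng1 (log2 0.50, edgeR adjusted p = 0.0909) and Vwf (log2 1.59, edgeR adjusted p = 0.112). These 6 and Plaur passed it by DESeq2. F9 had 183, 226 and 167 CPM in FBXL5ΔDC livers, against 137, 148 and 153 CPM in control livers, without overlap. Fibrinolytic genes had a median of 0.24, with Plat at 2.82 ± 1.05 CPM in FBXL5ΔDC livers and 0.651 ± 0.832 CPM in control livers (log2 2.12, edgeR adjusted p = 0.145). Among anticoagulant genes Pros1 (log2 0.54, edgeR adjusted p = 0.109) was higher in every FBXL5ΔDC liver than in any control liver, without passing the test, and Thbd averaged 63.7 ± 4.28 CPM in FBXL5ΔDC livers and 24.7 ± 35.8 CPM in control livers (log2 1.37, edgeR adjusted p = 0.441). Procr went the other way, at 1.67, 1.02 and 1.28 CPM in FBXL5ΔDC livers, against 4.03, 3.19 and 1.99 CPM in control livers (log2 −1.21, edgeR adjusted p = 0.496).

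Treated control replicate 3 set how many genes passed. Without it, 14 of 32 genes were higher in FBXL5ΔDC livers and F11 was lower (log2 −0.58, edgeR adjusted p = 0.0108), against 10.1% of all genes higher and 12.9% lower. The 14 were Fga (log2 0.92, edgeR adjusted p = 0.000505), Fgb (log2 1.0, edgeR adjusted p = 0.000214), Fgg (log2 1.04, edgeR adjusted p = 0.000137), F3 (log2 1.71, edgeR adjusted p = 0.0181), F9, F12, Vwf (log2 2.87, edgeR adjusted p = 3.15e-05), Kng1, Serpinc1, Pros1, Thbd (log2 3.98, edgeR adjusted p = 4.27e-05), Plat (log2 4.03, edgeR adjusted p = 0.00112), Plaur and Thbs1 (log2 4.16, edgeR adjusted p = 0.00173). The library is a control sample by its label, and was left out here only to show what rests on it. At 6 h 1 of the 6 sinusoidal endothelial markers was higher in FBXL5ΔDC livers with all libraries, 0 of the 4 vascular ones and 0 of the 6 platelet ones.

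**Figure D4:**
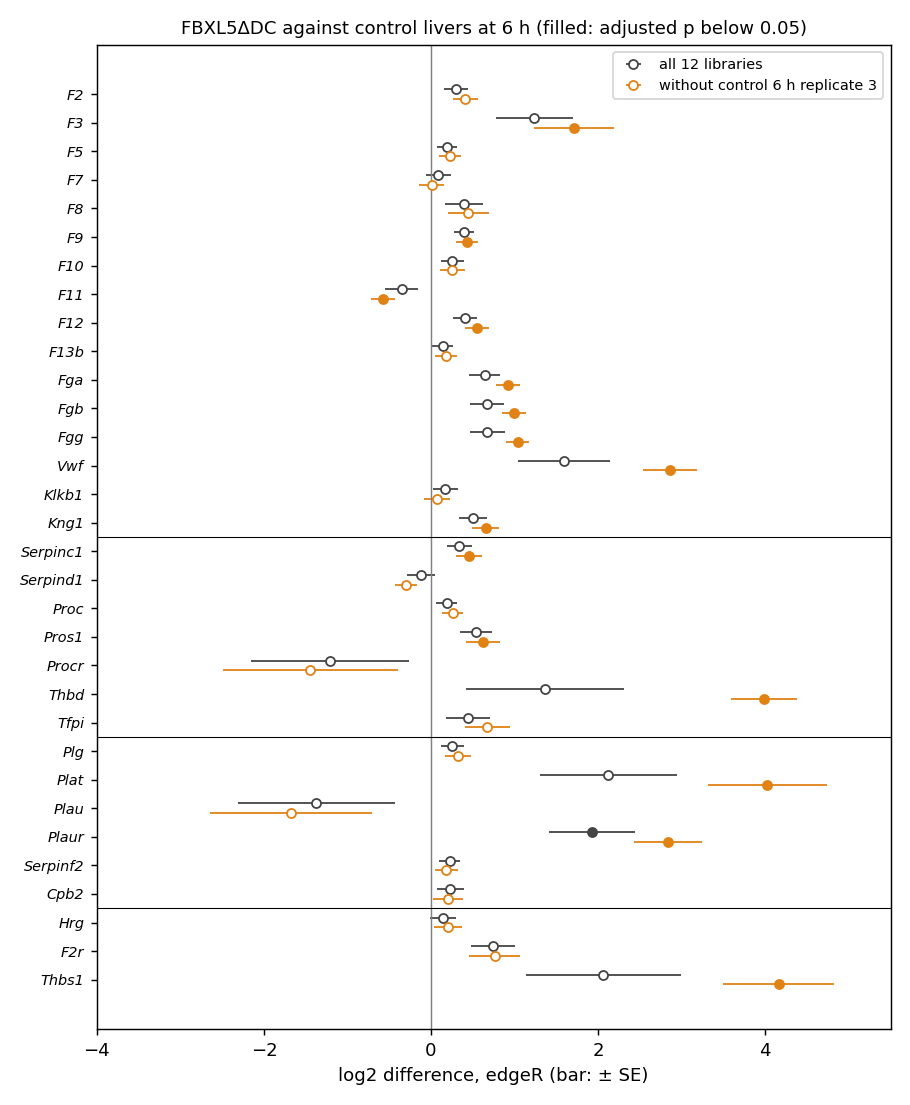
Points are edgeR log2 differences of the 32 genes, FBXL5ΔDC minus control livers at 6 h, with bars of ±1 SE, grey for all 12 libraries and orange without treated control replicate 3, and filled where the adjusted p is below 0.05. With all libraries only Plaur is filled, and without replicate 3 there are 14 filled points on the right and F11 on the left.

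Before treatment no gene of the 32 differed between the genotypes at an adjusted p below 0.05. By edgeR 0 were higher and 0 lower, against 0% of all tested genes in either direction, and 465 of all genes had an unadjusted p below 0.05. DESeq2 also called 0 of the 32, with no adjusted p for Thbd and Thbs1, and 9 genes higher and 7 lower over the whole table. At an unadjusted p below 0.05, 6 of the 32 were higher in FBXL5ΔDC livers (F5, F8, F9, F11, Plg and Cpb2) and 0 lower. The 465 of all genes were not split by direction. The values again leaned upwards, with 26 of 32 log2 differences above 0, a median of 0.23 and −0.00 over all genes. In 17 of 32 genes all 3 FBXL5ΔDC livers were above all 3 control livers, against 5.94% of all tested genes, and in 0 they were all below, against 5.8%. With plain library totals, which lower the median of all genes to −0.15 and that of the 32 to 0.09, it was 8 of 32 above, against 1.88%, and 0 below, against 17.4%. The genes share the same 6 livers, so these counts are not 32 independent results. Whether other abundant hepatocyte genes leaned likewise was not tested at 0 h either. With TMM scaling all 3 FBXL5ΔDC livers were above all 3 control livers in 12 of the 16 procoagulant genes. F11 had 35.6, 36.3 and 30.4 CPM in FBXL5ΔDC livers, against 19.005, 23.1 and 24.3 CPM in control livers (log2 0.62, SE 0.20, edgeR adjusted p = 1). Factor V (log2 0.35, edgeR adjusted p = 1), plasminogen (log2 0.34, edgeR adjusted p = 1) and Cpb2 (log2 0.46, edgeR adjusted p = 1) also had positive differences that were not called. Plg had 2267, 2462 and 2339 CPM in FBXL5ΔDC livers, against 1719.7, 2019 and 1843 CPM in control livers.

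Rises were counted separately in scarce and abundant transcripts. The 12 genes with a mean under 30 CPM over all libraries, a limit chosen after the values were seen, were F3, F8, F11, Vwf, Procr, Thbd, Tfpi, Plat, Plau, Plaur, F2r and Thbs1. In FBXL5ΔDC livers 6 of these 12 rose after acetaminophen and 1 fell, against 13.8% and 12.4% of all tested genes under that limit. Of the 20 more abundant genes 3 rose, all fibrinogen chains, and 3 fell, against 19.3% and 24.3% of all tested genes at or over it. In control livers 2 of the 12 rose and 0 fell, against 5.18% and 2.28%, and 0 of the 20 rose and 4 fell, against 10.5% and 11%.

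A further 21 genes of the pathway, of which 20 were tested, gave the surroundings of the 32. In FBXL5ΔDC livers 5 of the 20 rose and 4 fell after acetaminophen, against 15% and 15.1% of all tested genes, and in control livers 1 rose and 1 fell, against 6.36% and 4.2%. At 6 h 0 were higher and 1 lower in FBXL5ΔDC livers, against 1.35% and 4.51%, and at 0 h 0 were called. Most of these shares are near those of all genes. F2rl1, which encodes the protease-activated receptor PAR2, averaged 0.980 ± 0.776 CPM in treated FBXL5ΔDC livers, at least 21.9-fold higher than the floor of 3 counts in a library, and had 0 counts in the 3 untreated ones (edgeR adjusted p = 0.00589). Annexin A2 (Anxa2), which assembles plasminogen and Plat on the cell surface, rose as well (log2 2.90, SE 0.66, edgeR adjusted p = 0.00727), with 29.7, 14.9 and 33.4 CPM in treated and 3.22, 3.94 and 3.26 CPM in untreated FBXL5ΔDC livers. Fgl2, a fibrinogen-like protein that can cut prothrombin, had 5.67, 7.20 and 5.93 CPM in treated and 2.59, 1.43 and 1.03 CPM in untreated FBXL5ΔDC livers, with no overlap between the groups (log2 1.90, SE 0.51, edgeR adjusted p = 0.0133). Tissue factor pathway inhibitor 2 (Tfpi2, log2 −1.02, edgeR adjusted p = 0.00185), the vitamin K-dependent carboxylase Ggcx (log2 −0.63, edgeR adjusted p = 0.0195) and Mcfd2, which helps export factors V and VIII (log2 −0.46, edgeR adjusted p = 0.0193), fell in FBXL5ΔDC livers. In control livers the catalytic factor XIII subunit F13a1 had 0.439, 0.853 and 0.166 CPM when treated and 0, 0.0546 and 0 CPM untreated (edgeR adjusted p = 0.0458), and the vitamin K epoxide reductase Vkorc1 fell (log2 −0.55, SE 0.13, edgeR adjusted p = 0.0196). Vkorc1 was called lower in FBXL5ΔDC livers as well, and shares 47.7% of its exon bases with the same-strand model Gm21974. At 6 h Mcfd2 was lower in FBXL5ΔDC livers, at 123, 113 and 121 CPM, against 182, 189 and 137 CPM in control livers (log2 −0.51, SE 0.13, edgeR adjusted p = 0.0402).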

How the data were processed

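The authors' deposited table gave estimated counts per gene, as whole numbers without scaling, and was used as deposited. Per the submitters' processing notes, Trim Galore 0.6.6, HISAT2 2.2.1 and the build mm10 were used, and the counting program and strand setting are not given in the sources used here. Low values pile up at multiples of 4 (26.5% to 28.5% of values from 1 to 40), so a count need not be 1 fragment. The floor of 3 counts covers counting error only, whereas SDs and SEs include the spread between libraries. All 32 symbols matched 1 identifier each in the GENCODE vM21 annotation of GRCm38, which gave positions and exon lengths. No pair of replicates agreed within sampling noise. The filter filterByExpr kept 17585 genes, and a quasi-likelihood model with 4 group coefficients and 8 residual degrees of freedom was fitted to all 12 libraries in edgeR 4.0.16 (R 4.3.3) after TMM scaling. Adjusted p-values are Benjamini-Hochberg values over all tested genes of a contrast, called below 0.05. The SE of an edgeR log2 change was derived from the test, as its absolute value over the square root of the F statistic. DESeq2 1.42.0 was an alternative, and gave no adjusted p for Thbd and Thbs1. The 5 contrasts were acetaminophen in each genotype, genotype at each time, and their interaction. The alternatives were other scalings, no filter, fits to the compared groups alone, a replicate block, and each library left out in turn.

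The 32 genes, their roles, the further pathway list and the marker lists were chosen with earlier results of these data known. All 32 are described. Of the further pathway genes, up to 3 called per direction with the largest log2 change in each contrast are named. A gene of that list is not reported here and was left out of its counts. A few values were singled out after they were seen: the split by abundance, plain library totals as a scaling, and the non-overlap counts under that scaling.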

Additional observations from a re-analysis of the deposited data

How the results depend on the processing

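With any 1 library left out, acetaminophen in FBXL5ΔDC livers gave 5 to 11 of the 32 genes higher and 4 to 5 lower. Over the whole table it gave 1849 to 3117 genes higher and 1960 to 3188 lower. Fgb, Plat, Plaur and Thbs1 rose in each case. In control livers acetaminophen gave 1 to 5 of the 32 higher and 0 to 5 lower. Over the whole table it gave 449 to 1361 genes higher and 314 to 843 lower there. FBXL5ΔDC against control at 6 h gave 0 to 14 of the 32 higher and 0 to 1 lower, with 35 to 1873 and 215 to 2376 over all genes. The interaction gave 0 to 8 and 0 to 1 of the 32, with 0 to 1103 and 1 to 1430 over all genes. In 1 case a value changed sign and passed the threshold, Vwf in control livers without treated control replicate 3 (log2 −1.06, at most 0.66 without another library). DESeq2 called 1721 genes higher and 1222 lower after acetaminophen in control livers, 753 and 1500 at 6 h with 7 of the 32 higher, 9 and 7 at 0 h, and 228 and 490 for the interaction with 1 of the 32 higher. Fits to the compared groups alone, which leave fewer samples, called 235 and 167 genes after acetaminophen in control livers with 0 of the 32 lower, 0 and 6 genes at 6 h with 0 of the 32 higher, and 3 higher at 0 h. Upper quartile scaling gave 3 of the 32 higher at 6 h, and 2 genes higher and 18 lower for the interaction. Without the filter 0 of the 32 were higher at 6 h. Plain library totals, added after seeing the data, gave 157 and 1774 genes at 6 h and 2 and 17 for the interaction. The cause of these shifts was not tested. The labels do not say whether replicate numbers pair the samples, and the values showed no sign of it. None of the 18 same-numbered pairs of libraries had a correlation of deviations over 0.1 (−0.0572 to 0.0428). Of the 12 libraries, 1 correlated best with its own number. Low correlations cannot exclude that same-numbered samples were handled together. A replicate block gave 24 genes lower for the interaction, and at 6 h it called Fga (adjusted p = 0.049) and not Plaur (0.0638). Other counts stayed within 1.5 times. Among values of single genes, leaving out 1 library brought 34 past the threshold and 52 back from it, and the other settings, plain library totals aside, 16 and 10. Depth limits genes with few counts: untreated livers had 0 to 33 counts of Procr, 3 to 23 of Plat and 6 to 29 of Plaur.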
